A study of Mus musculus with 6 samples.

Results

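Ligands and receptors of the TGF-beta family were followed across the cells of the mouse cortical vessel wall, before and after injury, through 10 genes chosen by name: the ligand genes Tgfb1, Tgfb2, Tgfb3, Nodal, Bmp7, Inhba and Inhbb, the receptor genes Tgfbr1 and Tgfbr2, and Tgfbi, a matrix protein gene named for its induction by TGF-beta. These were 10 of the 23494 genes measured, and all 10 were found. Cells came from adult mice, 3 to 4 months old, that carried the Ai14 tdTomato (tdT) reporter and either NG2-CreERT2 or Tbx18-CreERT2, drivers that tamoxifen switches on in pericytes but also in other mural, glial or vessel cells. Each of the 2 lines gave a naive library, a physical injury library (saline injected into the cortex) and an ischemic injury library (the constrictor ET-1 with L-NAME, an inhibitor of nitric oxide synthesis). Injured cortices were taken 3 days after injection, and tamoxifen had been given 7 days before injury. Live tdT+ cells, sorted free of the dye DAPI, were pooled from several animals of both sexes into 1 library per group.

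With 1 library per group there was no replicate of any comparison, so no test was made and no p-value is given. A unique molecular identifier (UMI) stands for 1 captured RNA molecule. Each level is the number of a gene's UMIs in a cluster's cells of 1 library per 1000000 UMIs of all genes in them (CPM), and differences are log2 ratios of CPM. The 95% intervals beside them reflect the number of molecules counted and leave out how animals vary. Fewer cells of a subtype and less RNA per cell cannot be told apart in such sums. A gene counted as past 2-fold only where both groups together held at least 10 UMIs of it, and the same share over all genes of the comparison stands beside each count of members. The reads were 3' tags, so levels were compared for a gene across cells and not between genes.

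The TGF-beta family splits into TGF-betas, activins and Nodal on one side, which signal through SMAD2 and SMAD3, and bone morphogenetic proteins on the other, which signal through SMAD1, SMAD5 and SMAD9. TGF-betas are secreted in a latent form that integrins and proteases release, and they bind the type II receptor Tgfbr2, which recruits the type I receptor Tgfbr1. In brain vessels this signaling between endothelial and mural cells is known to be needed for vessel stability, and microglia depend on TGF-beta for their mature state.

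The 6 libraries held 686 to 4306 cells, with medians of 2806 to 9232 UMIs per cell and 3153996 to 54276245 UMIs in all. The naive libraries were the shallowest of their lines, and no pair of libraries shared more than 5 cell barcodes. The clusters are the deposited ones. In the tables of each line most carried the markers of the cell type the study gives them, with exceptions among the naive cells and in the Tbx18 line. The table of both naive libraries has 14 clusters whose numbers do not match those the study describes, so its clusters are called here by number and markers. In clusters 3 and 4 of the Tbx18 line's own table the naive cells were shallow (medians of 1118 and 1724 UMIs). They were rich in 8 pericyte markers (21279 and 16100 CPM), whereas the injured cells had 8.47 to 133 CPM of these markers. Naive cells are therefore not compared there. After injury cluster 3 of the Tbx18 line was led by Cd86, Cd74, Ccr2 and H2-Aa, and is called the myeloid cluster here. Its cluster 4 was led by Prg4, Slc47a1, Penk and Ttr and is called by its number. Naive cells of NG2 cluster 7 (17 cells) are left out for the same reason.

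**Figure D1:**
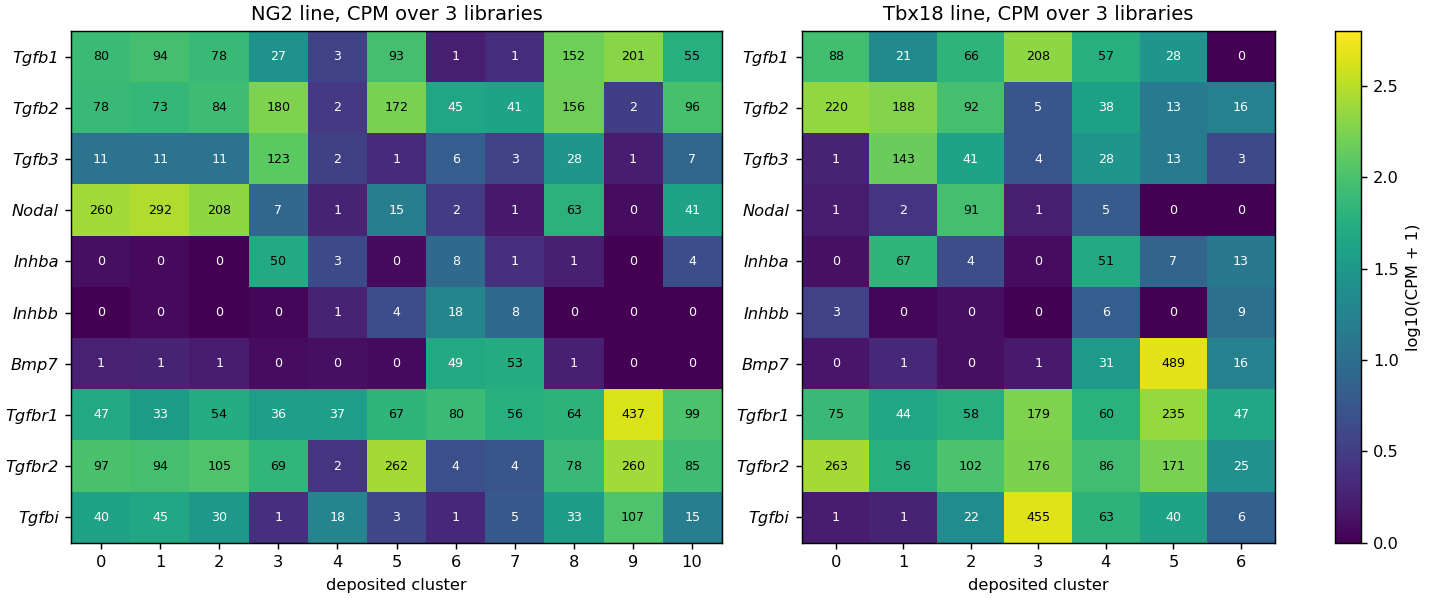
Level of each of the 10 genes in each deposited cluster (columns) of the NG2 and Tbx18 lines, with the CPM over the 3 libraries of a line printed in each cell and shown as color on a log10(CPM + 1) scale. Nodal stands out in the pericyte clusters, Tgfb3 and Inhba in the smooth muscle clusters, Bmp7 in fibroblasts (Tbx18 cluster 5) and glial precursors (NG2 clusters 6 and 7), Tgfbi in the myeloid clusters (NG2 cluster 9 and Tbx18 cluster 3), and Tgfbr1 in NG2 cluster 9 and Tbx18 clusters 5 and 3. Of the Tgfbi UMIs in NG2 cluster 9, 447 came from the ischemic library, 11 from the physical and 6 from the naive one.

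Nodal, a ligand best known from the patterning of the early embryo (chromosome 10, bases 61417972 to 61425338, plus strand, GRCm38), was the member most restricted to pericytes. In the activated pericytes of the NG2 line (cluster 0) its level was 277 CPM in naive, 267 CPM in physical injury and 215 CPM in ischemic injury. The canonical pericytes of cluster 1 had 300.2, 306 and 241 CPM in the same order, and those of cluster 2 had 221, 183 and 211 CPM. Smooth muscle cells (cluster 3) had 4.12 to 10.5 CPM, mature oligodendrocytes (cluster 4) 0.142 to 1.53 CPM, and microglia (cluster 9) 1 UMI over the 3 libraries. Nodal was itself among the 10 leading genes of clusters 0 and 1, so its height there describes the clusters and is not a separate finding.

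Counted per cell, 59.3% of the 1280 naive cells of cluster 0 held a Nodal UMI (exact 95% interval 56.5 to 62.0%) at a median of 4122 UMIs per cell. Mature oligodendrocytes of the same library, with a median of 13252 UMIs, held one in 0.971% of 103 cells, which is the background to read it against. With every cell thinned to 1000 UMIs the shares were 23.3% of 1277 pericytes and 0 of 99 oligodendrocytes, an upper bound of 3.66%.

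Within each of NG2 clusters 0, 1 and 2, Nodal after injury lay within 2-fold of its naive level. The ischemic level was below the naive one in cluster 0 (log2 ratio -0.37, 95% interval -0.52 to -0.22) and in cluster 1 (-0.32, -0.53 to -0.11), but not in cluster 2 (-0.06, -0.26 to 0.13). Physical injury alone lay near naive in clusters 0 and 1 and below it in cluster 2 (-0.27, -0.45 to -0.10). Over the 7 members with enough UMIs in cluster 0, none was past 2-fold in either direction after either injury, where 2.7% of all genes were higher and 4.2% lower after physical injury, and 3.03% higher and 4.04% lower after ischemic injury. The 8 pericyte markers summed to 36567 to 36646 CPM in the 3 libraries of that cluster, and so hardly moved.

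Canonical pericytes of the Tbx18 line (cluster 2) held less Nodal after both injuries than the naive cells placed in the same cluster. The level was 139 CPM in naive (206 UMIs in 226 cells), 52.5 CPM after physical injury (78 UMIs in 433 cells) and 48.2 CPM after ischemic injury (17 UMIs in 86 cells). The log2 ratio to naive was -1.40 (-1.79 to -1.02) for physical and -1.52 (-2.33 to -0.81) for ischemic injury. The cluster itself was not alike in the 3 libraries. Its pericyte markers summed to 31057, 20052 and 19249 CPM, its 6 smooth muscle markers to 733, 4145 and 1811 CPM and its 7 endothelial markers to 165, 887 and 1260.0 CPM, and the median UMIs per cell were 6548, 2540 and 3792. In cells with under 5000 CPM of the smooth muscle markers the Nodal ratios were -1.05 and -1.33. The part of these markers in the lower Nodal was not tested further. Other naive cells rich in pericyte markers lay in clusters 3 and 4 (21279 and 16100 CPM) and are not in these ratios. They held less Nodal than naive cluster 2, at 53.2 CPM (6 UMIs in 76 cells) and 79.0 CPM (23 UMIs in 157 cells). The part of this placement of naive cells in the lower Nodal was not tested.

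**Figure D2:**
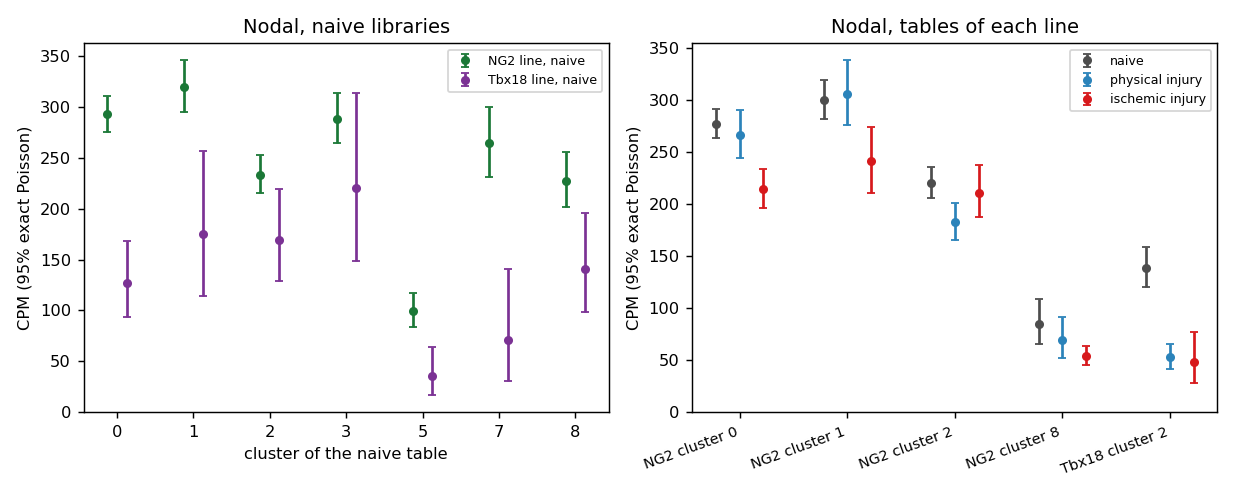
Nodal in CPM (vertical axes) with exact 95% Poisson intervals, left in the pericyte clusters of the table of both naive libraries by line, and right in pericyte clusters of each line by library. Left, the Tbx18 point is the lower one in 7 of 7 clusters. Right, NG2 clusters 0, 1 and 2 lie between 183 and 306 CPM, NG2 cluster 8 between 53.9 and 85.2 CPM, and Tbx18 cluster 2 is at 139 CPM in naive and 48.2 to 52.5 CPM after injury.

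Naive pericytes of the lines can be set side by side in the table that holds both naive libraries, which has 7 clusters marked by pericyte genes and holding at least 20 cells of each line. Cluster 6, led by Cd74 and C1qa, is not among them and held 246 Tbx18 and 29 NG2 cells. Of these Tbx18 cells 145 lay in Tbx18 cluster 4, whose naive cells were rich in pericyte markers. The 7 clusters therefore do not cover all such naive cells. Nodal was lower in the Tbx18 library in all 7, with 35.0 to 220.2 CPM against 99.2 to 320.1 CPM, and past 2-fold in 3 of them (clusters 0, 5 and 7), and in cluster 1 too when TMM factors were used (-1.06). In cluster 0 it was 293 CPM in NG2 cells and 127 CPM in Tbx18 cells (-1.21, -1.66 to -0.79). There it was the only member past 2-fold of 7, in a comparison where 13.8% of all genes were lower by that much and 8.79% higher. In cluster 5 (99.2 against 35.0 CPM, -1.50, -2.59 to -0.58), 9.11% of genes were higher and 14% lower. The smallest difference was in cluster 3 (289 against 220.2 CPM, -0.39, -0.97 to 0.14), whose interval holds 0. The pericyte markers were also lower in the Tbx18 library in 7 of 7 clusters, by less, at 22906 to 38952 CPM against 29071 to 42488 CPM. Line, library and sort cannot be told apart here. The genes with a pattern most like Nodal over the 47 sums of cluster and library with at least 20 cells were Kcnj8 and Abcc9, the subunits of the pericyte potassium channel, and Ggt1 (Pearson r of log2(CPM + 1) 0.97, 0.96 and 0.95 among 12873 genes). These sums share libraries and depth, so r is given as a description.

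Other members were past 2-fold between the naive lines in single clusters. In cluster 3, 2 of 7 were past 2-fold upward in the Tbx18 cells, Tgfbr2 and Tgfb3, and 1, Tgfbr1, downward, where 9.46% of all genes were higher and 21.9% lower. Of these 3 only Tgfbr2 had an interval apart from 0. After thinning, 0 of 26 Tbx18 cells held a UMI of Tgfb3 or of Tgfbr1, against 6 and 22 of 445 NG2 cells. Tgfbr2 was at 213 CPM (29 UMIs in 26 cells) against 90.8 CPM in NG2 cells (1.23, 0.61 to 1.80). Without the cell richest in Tgfbr2 in each library the ratio was 0.75 (-0.01 to 1.44), so that 1 cell decides whether it passes. In cluster 7, 2 of 7 were past it upward, Bmp7 and Tgfbi, and Nodal downward (264 against 71.3 CPM), where 11.9% of genes were higher and 21.5% lower. Bmp7 there was at 98.0 CPM (11 UMIs in 27 Tbx18 cells) against 2.27 CPM (2 UMIs in 244 NG2 cells), and the fibroblast markers summed to 2255 against 578 CPM beside it. In the table of the Tbx18 line, 3 of the 27 Tbx18 cells lay in cluster 5, the fibroblasts, where Bmp7 was highest. With cells thinned to an equal depth, 1 of 26 Tbx18 cells and 0 of 241 NG2 cells held a Bmp7 UMI. The part of the fibroblast markers, or of those 3 cells, in the Bmp7 level was not tested.

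Tgfb1, the TGF-beta of immune cells and of vessel walls (chromosome 7, 25687002 to 25705077, plus strand), and Tgfb2 (chromosome 1, 186622792 to 186705989, minus strand, overlapped by the antisense gene Gm29491), an isoform of smooth muscle and neural tissue, were both higher after injury in the mesenchymal-like pericytes of the NG2 line (cluster 8). For Tgfb1 the level was 69.0 CPM in naive (51 UMIs in 177 cells), 146 CPM after physical injury (111 UMIs in 81 cells) and 178 CPM after ischemic injury (440 UMIs in 240 cells). For Tgfb2 it was 77.1, 161 and 177 CPM. The injured libraries lay above naive for both genes and close to each other. The log2 ratios to naive for Tgfb1 were 1.08 (0.59 to 1.59) and 1.37 (0.95 to 1.82), and for Tgfb2 1.06 (0.59 to 1.54) and 1.20 (0.80 to 1.63), physical before ischemic.

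Tgfb3 was also past 2-fold in this cluster after physical injury, at 42.1 against 20.3 CPM (1.05, 0.13 to 2.04), but at 25.9 CPM after ischemic injury it was not (0.35, -0.47 to 1.27). Tgfbi was at 20.3, 19.7 and 41.3 CPM, and so past 2-fold only after ischemic injury (1.03, 0.24 to 1.92). In all, 3 of 7 members were past 2-fold upward after each injury and none downward. Over all genes of the cluster 7.1% were that much higher and 9.87% lower after physical injury, and 9.86% higher and 12.9% lower after ischemic injury. Both injury ratios use the same naive library. The receptors moved less. Tgfbr2 was at 74.4, 69.8 and 81.4 CPM, and Tgfbr1 at 46.0, 47.4 and 75.0 CPM, with an ischemic to naive ratio of 0.70 (0.17 to 1.28). Nodal in these cells was lower after ischemic injury, at 53.9 against 85.2 CPM (-0.66, -1.10 to -0.20).

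**Figure D3:**
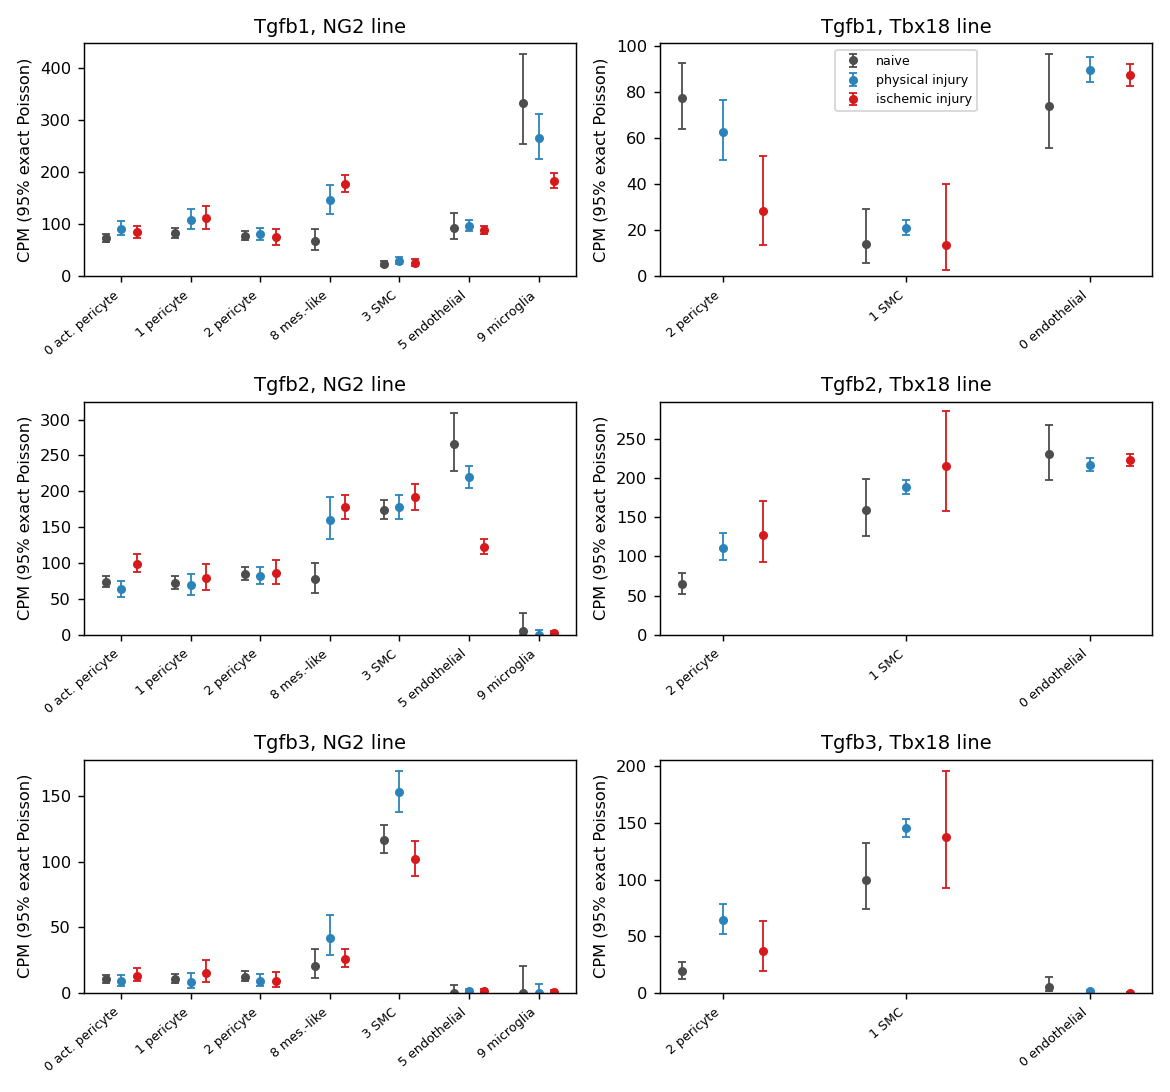
Tgfb1, Tgfb2 and Tgfb3 in CPM (vertical axes) with exact 95% Poisson intervals, by cluster (horizontal axes) and library (colors). In NG2 cluster 8 Tgfb1 and Tgfb2 lie at 69.0 to 77.1 CPM in naive and at 146 to 178 CPM after injury, and in NG2 cluster 5 Tgfb2 is 267, 219.7 and 123 CPM.

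Cells of cluster 8 differed between libraries in more than these ligands. The median was 4026 UMIs per cell in naive and 7733 and 8444 after injury, smooth muscle markers summed to 1185, 3997 and 1985 CPM, endothelial markers to 294, 727 and 664 CPM, and microglia markers to 105, 317 and 182 CPM, while pericyte markers stayed at 24105 to 26593 CPM. Where cells rich in smooth muscle transcripts were left out, the Tgfb1 ratios were 1.22 and 1.52 and those of Tgfb2 1.03 and 1.00. Leaving out cells with 2 or more UMIs of microglia and macrophage markers, which keeps 29 physical injury cells, gave 0.41 (-0.39 to 1.16) for Tgfb2 after physical injury, and 1.46 for Tgfb1. Shares of cells with a UMI gave a less even picture. For Tgfb1 they were 18.6% in naive, 58.0% in physical and 62.9% in ischemic injury, and after thinning to 1000 UMIs 7.47%, 7.5% and 15.2%. For Tgfb2 the thinned shares were 5.75%, 16.3% and 13.5%. For Tgfb3 they were 2.30%, 1.25% and 1.27%, and for Tgfbi 1.15%, 1.25% and 0.844%, each from 4 cells or fewer. In oligodendrocyte precursors (OPCs), which hold next to no Tgfb1, the unthinned share was 0.664% of 301 physical injury cells at a median of 12390 UMIs.

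The sequences just upstream of Tgfb1 and Tgfb2 are shown because these members were high together in cluster 8. Each line gives the 250 bases before the RefSeq start (GRCm38.p6), at chr7:25686752-25687001 on the plus strand and chr1:186705990-186706239 on the minus strand. Capitals mark motif letters found on either strand.
Tgfb1: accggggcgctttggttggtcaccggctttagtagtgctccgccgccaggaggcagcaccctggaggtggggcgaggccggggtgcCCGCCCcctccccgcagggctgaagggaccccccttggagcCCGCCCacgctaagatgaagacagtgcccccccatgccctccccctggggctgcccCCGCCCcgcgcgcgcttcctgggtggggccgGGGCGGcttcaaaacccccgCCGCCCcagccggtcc
Tgfb2: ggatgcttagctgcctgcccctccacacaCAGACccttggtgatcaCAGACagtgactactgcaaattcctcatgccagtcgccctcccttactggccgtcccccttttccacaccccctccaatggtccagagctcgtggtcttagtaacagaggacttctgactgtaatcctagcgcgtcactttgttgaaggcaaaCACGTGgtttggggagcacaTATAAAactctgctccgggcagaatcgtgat
The Tgfb1 stretch is 75.2% G and C and holds 5 GC boxes (GGGCGG), a motif in 32.7% of 32851 such promoter stretches. The Tgfb2 stretch is 53.6% G and C and holds 2 CAGAC boxes, the core that SMAD proteins bind, found in 42.2% of the stretches, with a CACGTG E-box (6.02%) and a TATAAA box (12.4%). No TGANTCA, the AP-1 motif (6.75%), was found in either. A match is a run of letters and not a measured site, and the 2 stretches have no motif of this list in common. RefSeq stretches were matched for 8 of the 10 members, all but Tgfb3 and Bmp7.

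Genes of the pathway around these ligands were read in cluster 8 from 7 lists. Of 24 commonly cited target genes, 23 had enough UMIs after physical injury, and 8 were past 2-fold upward and 6 downward. After ischemic injury 7 of 22 were higher and 8 lower, with a median log2 ratio of -0.28, against -0.15 over all genes. The 4 most abundant split in direction. Acta2, smooth muscle actin, was at 281, 2167 and 1062 CPM in naive, physical and ischemic injury, and Tagln, another contractile gene, at 289, 1128 and 475 CPM. Junb, an immediate early gene, was at 4866, 1604 and 2379 CPM, and Tsc22d1 at 419, 142 and 143 CPM. In the cells with few smooth muscle transcripts the physical injury counts were 5 higher and 5 lower of 21. Of all genes in those cells 6.93% were higher and 10.2% lower. After ischemic injury 8 of 22 were higher and 6 lower in such cells, where 9.87% of all genes were higher and 11.6% lower.

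Inhibitors of the pathway included Smad7, the feedback inhibitor of Tgfbr1, at 27.1, 56.6 and 77.0 CPM (1.07, 0.27 to 1.91, and 1.51, 0.84 to 2.25). Of 12 inhibitors 4 were past 2-fold upward after physical injury (Smad7, Fstl3, Tgif1 and Dcn) and 5 after ischemic injury (the same 4 and Skil), and 1, Bambi, downward after both. The named inhibitors Nbl1 (550.5, 433 and 408 CPM) and Pmepa1 (86.6, 90.8 and 72.5 CPM) were within 2-fold. Among co-receptors Tgfbr3, or betaglycan, which presents TGF-beta2 to its receptors, was lower, at 185, 75.0 and 43.4 CPM (-1.30, -1.78 to -0.85, and -2.10, -2.47 to -1.72), whereas endoglin (Eng) was at 183, 233 and 187 CPM. From the latency list, Itgb1 (1382, 2112 and 2177 CPM), Itgav (74.4, 139.6 and 134 CPM) and Itgb5 (154, 273 and 224 CPM) were higher by less than 2-fold. Itgb8, also among the 4 latency genes with the most UMIs in the NG2 line, is not given here. No count past 2-fold is given for the latency list or the co-receptors. None of 9 receptors was past 2-fold after physical injury and 3 were lower after ischemic injury (Acvr1b, Acvr2a and Acvrl1). Smad4, the SMAD shared by both branches, was at 115, 94.8 and 100.5 CPM, and of 6 signal carriers only Smad3 was past 2-fold, downward after both injuries. Of the remaining ligands with enough UMIs, none of 4 was past 2-fold after physical injury, and after ischemic injury 1 of 6 was higher (Gdf15) and 3 lower (Bmp2, Bmp4 and Lefty1). Beside these counts and those of the targets, 7.1% of all genes in cluster 8 were higher and 9.87% lower after physical injury. After ischemic injury 9.86% were higher and 12.9% lower. Genes named here only for having passed 2-fold were chosen after their values were seen.

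In the 3 large pericyte clusters of the NG2 line the TGF-beta ligands held closer to naive. Tgfb1 was at 73.7, 91.8 and 85.2 CPM in cluster 0, at 83.1, 109 and 112 CPM in cluster 1 and at 77.7, 81.3 and 75.2 CPM in cluster 2. Its interval lay above 0 in clusters 0 and 1 after physical injury (0.32, 0.05 to 0.57, and 0.40, 0.09 to 0.70). Tgfb2 in cluster 0 was at 73.7, 63.1 and 99.2 CPM, higher in the ischemic library than in either other (0.43, 0.19 to 0.66, against naive). Tgfbr1 stayed between 29.9 and 55.0 CPM and Tgfbr2 between 78.7 and 115 CPM over the 9 sums of these clusters. Of the 19 target genes with enough UMIs in cluster 0, 4 were past 2-fold upward (Id2, Id4, Klf10 and Cdkn1a, chosen after their values were seen) and none downward after ischemic injury, and no receptor of 9 was past it after either injury. Over all genes of cluster 0, 3.03% were higher and 4.04% lower after ischemic injury, and 2.7% higher and 4.2% lower after physical injury.

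Tgfbi in these 3 clusters was highest after physical injury, at 53.3 CPM against 33.9 CPM in cluster 0 (0.66, 0.30 to 1.01) and 66.3 against 38.3 CPM in cluster 1 (0.79, 0.37 to 1.21), and at 34.1 against 30.0 CPM in cluster 2. The thinned share of cells with a UMI in cluster 0 was 2.51% in naive, 4.99% in physical and 3.19% in ischemic injury. In cluster 2 it was 2.51%, 4.67% and 3.30% in the same order. In cluster 1 it was not higher after injury, at 3.79%, 2.35% and 3.15%. The naive and physical intervals of these shares overlapped in each cluster. Microglia markers in these clusters were also highest after physical injury, at 262, 408 and 322 CPM against 90.7, 105 and 101 CPM in naive, with C1qa, C1qb, C1qc and Tmem119 at 0 in cluster 0 of the physical injury library. The part of these transcripts in the Tgfbi levels was not tested.

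Pericytes of Tbx18 cluster 2 had a different ligand pattern. The naive cells rich in pericyte markers that lay in clusters 3 and 4 are not in these ratios either. Tgfb2 was at 64.6 CPM in naive, 111 CPM after physical and 128 CPM after ischemic injury (0.78, 0.41 to 1.16, and 0.98, 0.44 to 1.51). In this line Tgfb2 was highest in the endothelial and smooth muscle clusters (220 and 188 CPM), and the markers of both cell types were higher in cluster 2 after injury. The part of such transcripts in the Tgfb2 ratios was not tested further. Tgfb3 was at 18.8, 64.0 and 36.9 CPM, with a physical to naive ratio of 1.76 (1.14 to 2.43), which was 1.09 in cells with few smooth muscle transcripts. Tgfb1 went the other way, at 77.3, 62.6 and 28.4 CPM, the last from 10 UMIs (-1.45, -2.54 to -0.52). Tgfbi was at 31.6, 16.2 and 8.51 CPM, the last from 3 UMIs. After physical injury 1 of 7 members was past 2-fold upward and 1, Nodal, downward, where 11% of all genes were higher and 6.71% lower. After ischemic injury 3 of 7 (Tgfb1, Tgfbi and Nodal) were past it downward and none upward, where 11.9% of genes were lower and 9.34% higher. Tgfbr2 was at 113, 85.5 and 122 CPM and Tgfbr1 at 59.2, 54.6 and 68.1 CPM.

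The target genes past 2-fold in this cluster were all higher after injury. Of 23 with enough UMIs, 17 were past 2-fold upward after physical injury and none downward, with a median log2 ratio of 2.15 against 0.00 over all genes. Of all genes 11% were that much higher and 6.71% lower. Tagln was at 43.7 and 1194 CPM and Acta2 at 96.8 and 1615 CPM in naive and physical injury, and both are smooth muscle markers. Id3, a target of the bone morphogenetic protein branch, was at 149 and 1145 CPM and Junb at 2069 and 3134 CPM. In cells with under 5000 CPM of smooth muscle markers 12 of 22 targets were past 2-fold upward and none downward, with a median of 1.30, in a comparison where 8.24% of all genes were that much higher. After ischemic injury 12 of 20 were higher in all cells and 10 of 19 in the restricted cells, where 9.34% and 9.12% of all genes were that much higher. The endothelial markers also moved with these counts, and so did the fibroblast markers, at 305, 635 and 738 CPM in naive, physical and ischemic injury, while the target list itself holds collagen genes that fibroblasts express. Their part was not tested. Pmepa1, an inhibitor that TGF-beta induces, was at 36.3 CPM in naive and 90.3 and 90.8 CPM after injury, and Smad7 at 33.6, 55.9 and 85.1 CPM. Ski and Dcn, also among the inhibitors with the most UMIs in the Tbx18 table, are not given here. These levels therefore do not stand for the list of inhibitors.

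Tgfb2 was also the TGF-beta ligand with the clearest pattern in endothelial cells. In the NG2 line (cluster 5) it was at 267 CPM in naive (170 UMIs in 101 cells), 219.7 CPM after physical injury (811 UMIs in 404 cells) and 123 CPM after ischemic injury (583 UMIs in 453 cells). The ischemic library lay below both others, with log2 ratios of -1.12 (-1.37 to -0.86) to naive and -0.84 (-0.99 to -0.68) to physical injury. It was the only member of 6 past 2-fold downward against naive, where 5.61% of all genes were that much lower and 10.2% higher. As a mean over cells the ratio to naive was -0.74, within 2-fold. After thinning to 1000 UMIs the shares of cells with a Tgfb2 UMI were 19.0%, 16.5% and 13.8%, with overlapping intervals. In the Tbx18 line (cluster 0) the levels were 231, 217 and 223 CPM, and the ischemic to physical ratio was 0.036 (-0.04 to 0.11).

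Endothelial cells were not uniform in Tgfb2. In the table of both naive libraries, cluster 13, led by Gkn3, Stmn2, Vegfc, Sema3g and Bmx, held 396 CPM in NG2 cells and 453 CPM in Tbx18 cells, and the other endothelial cluster, cluster 10, held 177 and 163 CPM. The 10 leading genes of cluster 13 summed to 1776, 1076 and 602 CPM in the naive, physical and ischemic cells of NG2 cluster 5, in the order of Tgfb2, and to 1037, 895 and 1119 CPM in Tbx18 cluster 0. Among cells with no UMI of these genes the NG2 ischemic to physical ratio was -0.65 (64.1 against 100.3 CPM, -0.96 to -0.33), and that of the Tbx18 line was -0.25 (97.7 against 116 CPM, -0.41 to -0.08). Both lines then had less Tgfb2 in the ischemic cells that were kept. Whether a cell is kept depends on its depth, and the ischemic libraries as a whole were deeper. Their medians over the cells of all clusters were 7851 against 6322 UMIs in the NG2 line and 9232 against 7376 UMIs in the Tbx18 line. Medians within the endothelial clusters are not given here. The filter left out 43.7% of ischemic and 45.3% of physical cells in NG2 cluster 5, and 58.8% and 47.9% in Tbx18 cluster 0. The part of depth or of vessel subtype in either ratio was not tested beyond that.

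Other ligands were low in endothelial cells except Tgfb1, at 94.1, 97.5 and 89.0 CPM in the NG2 line and 74.2, 89.8 and 87.4 CPM in the Tbx18 line. Tgfbr2 was near its highest level there, at 246, 248 and 276 CPM and at 264, 236 and 286 CPM. The ischemic level was above the physical one in both lines by a small margin (0.16, 0.03 to 0.28, and 0.28, 0.21 to 0.35). Tgfbr1 was at 61.8 to 74.2 CPM and 73.0 to 77.2 CPM. Inhbb, which encodes the beta B chain of activin, was at 0.325 CPM (4 UMIs) after physical and 4.68 CPM (66 UMIs) after ischemic injury in Tbx18 cluster 0 (3.85, 2.43 to 5.77). These 66 UMIs lay in 26 of 1488 cells, with 15 in a single cell. NG2 endothelial cells had 3.25 and 4.64 CPM of it, and 0 UMIs in naive, where 3 counts would be 4.70 CPM. Inhbb was the 1 member of 8 past 2-fold upward in Tbx18 cluster 0 between the injuries, with Tgfb3 and Bmp7 downward at 20 UMIs or fewer, where 3.96% of genes were higher and 3.06% lower. None of 8 was past it in NG2 cluster 5 (4.6% higher and 3.61% lower). The naive cells of Tbx18 cluster 0 held 3915 CPM of pericyte markers against 359 and 105 CPM after injury, and Nodal there was at 14.8 CPM in naive and at 0.406 and 0.142 CPM after injury.

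**Figure D4:**
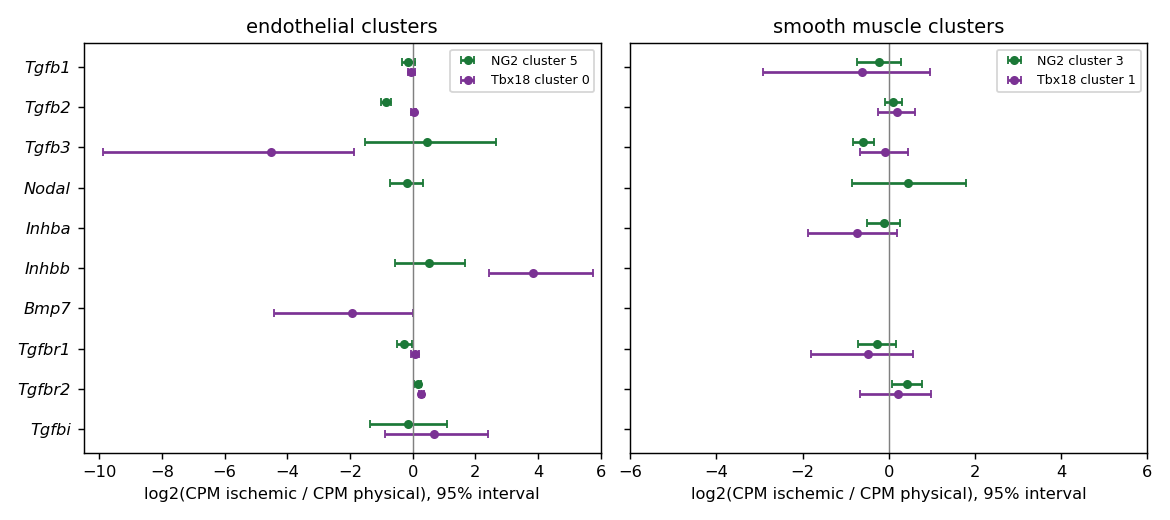
Log2 ratio of ischemic to physical injury, with 95% intervals for counting error, for the members with enough UMIs in the endothelial (left) and smooth muscle (right) clusters of both lines. In endothelial cells Tgfb2 is at -0.84 in the NG2 line and 0.036 in the Tbx18 line, and Tgfbr2 is above 0 in both.

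Smooth muscle cells held Tgfb3 and Inhba. Tgfb3, the isoform of contractile and mesenchymal tissue (chromosome 12, 86056745 to 86079041, minus strand), was at 117, 153 and 102 CPM in NG2 cluster 3 and at 99.99, 145 and 137 CPM in Tbx18 cluster 1. In both lines it was higher after physical injury than in naive (0.39, 0.19 to 0.59, and 0.54, 0.13 to 0.98), and in the NG2 line lower after ischemic than physical injury (-0.59, -0.83 to -0.35). Makeup moved with it in Tbx18 cluster 1, where the smooth muscle markers summed to 20609, 31486 and 26138 CPM and the pericyte markers to 8208, 2755 and 8456 CPM, and their part was not tested. The gene overlaps Ttll5 on the other strand, and whether counting used strand is not given in the sources used here. Inhba, the beta A chain of activin (chromosome 13, 16011851 to 16031621, plus strand), was at 50.9, 51.9 and 48.0 CPM in NG2 and 49.0, 68.7 and 41.2 CPM in Tbx18 smooth muscle cells. It overlaps the antisense gene Gm48444. In the canonical pericytes of NG2 cluster 2 no Inhba UMI was found in any library, where 3 counts would be 0.757 CPM in naive, 1.36 CPM in physical and 2.23 CPM in ischemic injury.

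Smooth muscle Tgfb2 was at 174, 177 and 192 CPM in the NG2 line and 159, 189 and 215 CPM in the Tbx18 line, with every injury interval holding 0. Tgfb1 was low there, at 24.7 to 30.5 CPM and 13.7 to 21.1 CPM. Tgfbr2 was at 80.5 CPM in naive, 51.5 CPM after physical and 68.8 CPM after ischemic injury in NG2 cluster 3 (-0.64, -0.96 to -0.34, for physical to naive). Of 7 members in that comparison only Nodal, from 41 and 10 UMIs, was past 2-fold downward, where 3.53% of genes were lower and 2.64% higher. The patterns most like Tgfb3 were those of Tpm2, Mustn1 and Alx1 (r of 0.87 each), and the most like Inhba were Cpxm2, Cnn1 and Atp1b1 (0.89, 0.87 and 0.87).

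Microglia and myeloid cells carried the receptors and Tgfb1. They also carried Tgfbi, in the NG2 microglia mainly after ischemic injury. Over the 3 libraries of the Tbx18 line, Tgfbr2 was higher in endothelial cells (263 CPM) than in the myeloid cluster (176 CPM). Tgfbr1 was higher in that line's fibroblasts (235 CPM) than in its myeloid cluster (179 CPM). Tgfbr1 (chromosome 4, 47353222 to 47414931, plus strand) was at 851 CPM in naive (156 UMIs in 18 cells), 917 CPM after physical injury (527 UMIs in 36 cells) and 339 CPM after ischemic injury (1221 UMIs in 164 cells) in NG2 cluster 9. The ischemic level was below the physical one by a log2 ratio of -1.43 (-1.58 to -1.28). A single physical injury cell held 111 of the 527 UMIs and a single naive cell 49 of the 156, and without the cell richest in Tgfbr1 in each library the ratio was -1.22 (332 against 775 CPM). Tgfbr2 (chromosome 9, 116084293 to 116175360, minus strand) was at 371, 308 and 247 CPM in the same cells and Tgfb1 at 333, 266 and 183 CPM. Between the injuries both were lower in the ischemic library (-0.32, -0.55 to -0.08, and -0.54, -0.79 to -0.27). Shares of cells with a UMI after thinning to 1000 UMIs did not follow the levels of these genes, at 17.1% of 35 physical and 22.7% of 154 ischemic cells for Tgfbr2 and 17.1% and 16.2% for Tgfb1. For Tgfbr1 they did, at 54.3% and 29.2%.

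Tgfbi (chromosome 13, 56609523 to 56639562, plus strand) was higher in the ischemic library. It was at 32.7 CPM in naive (6 UMIs), 19.1 CPM after physical injury (11 UMIs) and 124 CPM after ischemic injury (447 UMIs), a ratio of ischemic to physical of 2.70 (1.85 to 3.71). The naive level lay among those of the large pericyte clusters of the NG2 line, and the physical one below them. In the table of both naive libraries Tgfbi was highest in cluster 3, a pericyte cluster (53.3 CPM), and was among its 10 leading genes. Of 4 members measured between the injuries in cluster 9, Tgfbi was past 2-fold upward and Tgfbr1 downward, where 12.2% of all genes were higher and 7.29% lower. Makeup differed too. The 8 microglia markers summed to 19570.2, 21809 and 23197 CPM, and P2ry12, a marker of resting microglia, was at 1238, 633 and 406 CPM. Tmem119, another marker of that list, was at 480, 179 and 206 CPM, and so was not lower in the ischemic than in the physical library. The 5 border macrophage markers summed to 38.2, 41.7 and 253 CPM, with Lyve1 and Cd163 at 0 in the ischemic library, and Mrc1 was found in 4 of 36 physical and 49 of 164 ischemic cells. In cells without a UMI of these 5 markers (29 physical and 82 ischemic cells), Tgfbi was at 10.2 and 33.0 CPM (1.70, 0.20 to 3.65) and the Tgfbr1 ratio was -1.19. In naive, the 18 cells held 5379 CPM of antigen presenting markers, against 78.3 and 229 CPM after injury. Mrc1 was the gene with the pattern most like Tgfbi over all 47 sums (r of 0.85).

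**Figure D5:**
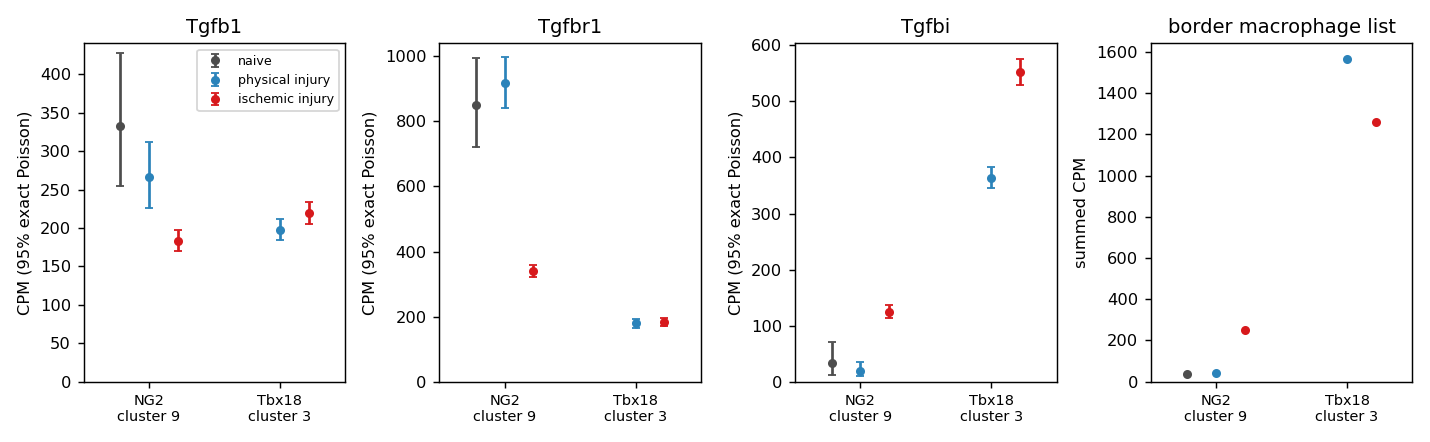
Tgfb1, Tgfbr1 and Tgfbi in CPM with exact 95% Poisson intervals, and the summed CPM of 5 border macrophage markers, in NG2 microglia (cluster 9) and in the Tbx18 myeloid cluster (cluster 3, injured libraries). In microglia Tgfbr1 is 851, 917 and 339 CPM and Tgfbi 32.7, 19.1 and 124 CPM in naive, physical and ischemic injury, and the markers 38.2, 41.7 and 253 CPM.

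The inhibitor Smad7 in these microglia was at 404 CPM after physical and 129 CPM after ischemic injury (-1.64, -1.87 to -1.41). Of 10 inhibitors 2 were past 2-fold downward, Smad7 and Nbl1 (20.9 and 6.95 CPM), and none upward. Among the targets 5 of 15 were past it upward (Ccn1, Id1, Acta2, Tagln and Thbs1, chosen after their values were seen) and none downward. Over all genes of this comparison 12.2% were that much higher and 7.29% lower. In the NG2 line Acta2, Tagln and Thbs1 were highest in smooth muscle cells (cluster 3), and Ccn1 and Id1 in endothelial cells (cluster 5). The part of transcripts of those cells in this count was not tested. Pmepa1 was at 294 and 361 CPM. The integrin chains Itgav (297 and 203 CPM) and Itgb5 (557 and 519.8 CPM), which take part in releasing latent TGF-beta, were within 2-fold.

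Myeloid cells of the Tbx18 line (cluster 3) held Tgfbi at 364 CPM after physical (1451 UMIs in 318 cells) and 552 CPM after ischemic injury (2282 UMIs in 265 cells), a ratio of 0.60 (0.51 to 0.70). The makeup of the cluster differed as well. The monocyte and neutrophil markers summed to 762 CPM after physical and 1341 CPM after ischemic injury, among them the monocyte receptor Ccr2 at 467 and 554 CPM, while the microglia markers summed to 6797 and 5414 CPM and the border macrophage markers to 1566 and 1258 CPM. With cells of the Tbx18 table assigned by marker lists, Tgfbi was highest in the monocyte and neutrophil class (656 CPM in 86 cells), followed by the microglia class (589 CPM). The part of this makeup in the Tgfbi ratio was not tested. Tgfb1 was at 198 and 219.7 CPM, Tgfbr1 at 179 and 183 CPM and Tgfbr2 at 175 and 178 CPM, all within 2-fold. None of 6 members was past it, where 4.84% of all genes were higher and 4.24% lower.

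Oligodendrocyte lineage cells and fibroblasts held the remaining ligands. Bmp7, a bone morphogenetic protein made by meninges and glia (chromosome 2, 172868012 to 172940321, minus strand), was highest in the fibroblasts of the Tbx18 line (cluster 5), at 385 CPM in naive (12 UMIs in 5 cells), 511 CPM after physical (443 UMIs in 116 cells) and 294 CPM after ischemic injury (24 UMIs in 10 cells). The ischemic to physical ratio was -0.80 (-1.46 to -0.21) and rests on those 10 cells. Fibroblasts also held the receptors after physical and ischemic injury, Tgfbr1 at 238 and 220.1 CPM and Tgfbr2 at 161 and 306 CPM. OPCs of the NG2 line (cluster 6) held 33.4, 49.1 and 50.4 CPM and the radial glial precursors of the study (cluster 7) 55.7 and 52.9 CPM after physical and ischemic injury. In NG2 pericytes and smooth muscle cells (clusters 0 to 3) Bmp7 was at 3.20 CPM or less in every library, from 6 UMIs at most. Its pattern was most like those of Cpxm1, Pdgfra and Eya1 (0.91, 0.91 and 0.90), Pdgfra being the receptor that marks OPCs and fibroblasts.

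Inhbb (chromosome 1, 119415465 to 119422248, minus strand) was at 15.8, 18.2 and 17.2 CPM in OPCs and at 12.4 and 7.85 CPM in the injured radial glial precursors, and the intervals of all 3 ratios between the OPC levels hold 0. OPCs also held Tgfb2, at 54.5, 38.0 and 49.6 CPM, and Tgfbr1, at 61.5, 75.6 and 87.3 CPM, but next to no Tgfb1 (0 to 1.01 CPM) and little Tgfbr2 (1.59 to 6.08 CPM). Mature oligodendrocytes had Tgfbr1 at 23.7, 45.9 and 33.7 CPM (0.95, 0.42 to 1.53, for physical to naive) and Tgfbr2 at 0 to 1.85 CPM.

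In mature oligodendrocytes Inhba was at 0 UMIs in naive, where 3 counts would be 2.29 CPM, at 0.142 CPM (1 UMI) after physical and at 4.79 CPM (83 UMIs) after ischemic injury. The 83 UMIs lay in 14 of 592 cells and 49 of them in a single cell, without which the level was 1.97 CPM (1.36 to 2.75). Tgfbi there was at 7.64, 12.2 and 20.7 CPM, and the ischemic to physical ratio of 0.76 (0.42 to 1.12) was 0.27 (-0.20 to 0.76) when the study's filters on cells were applied again. Between the injuries 2 of 9 members were past 2-fold upward in this cluster (Inhba and Nodal, the latter from 1 and 20 UMIs) and none downward, where 10.7% of all genes were higher and 2.42% lower.

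Cluster 4 of the Tbx18 table held several ligands and the matrix protein gene Tgfbi after injury. Inhba was at 55.6 and 49.2 CPM after physical and ischemic injury, Bmp7 at 36.2 and 26.9 CPM, Tgfbi at 67.4 and 61.4 CPM and Tgfb3 at 31.9 and 18.4 CPM. Between the injuries the interval of Tgfb1 lay above 0 there (49.1 and 68.4 CPM, 0.48, 0.08 to 0.88). Those of Tgfb3, Tgfbr1 (69.6 and 42.2 CPM) and Tgfbr2 (94.5 and 66.0 CPM) lay below 0. How many of all genes had intervals apart from 0 was not counted. Between the same libraries the fibroblast markers of cluster 4 summed to 1549 and 3554 CPM, the cycling markers to 188 and 379 CPM, the pericyte markers to 133 and 26.1 CPM and the microglia markers to 729 and 931 CPM, and their part was not tested. Nodal had no UMI in either library, where 3 counts would be 1.10 and 2.30 CPM.

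Over the 47 sums of both tables the genes most like Tgfb1 were Furin, the protease that processes its precursor, the receptor gene Tgfbr2 and Sat1 (r of 0.89, 0.88 and 0.88). Tgfbr2 was most like Trim12a, Nrp1 and Parp14 (0.94, 0.93 and 0.91), Tgfb2 most like Emp2, Cdkn1c and Prss23 (0.93, 0.87 and 0.85) and Tgfbr1 most like Ptgs1, Slc16a10 and Slc37a2 (0.85, 0.85 and 0.83).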

How the data were processed

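Mouse cortical tdT+ cells were profiled by droplet 3' RNA-seq in 6 libraries, 1 per group. The authors deposited 3 tables of UMI counts, 1 with both naive libraries and 1 per line, with each cell's library, cluster number and mitochondrial percent as the authors computed it. They had aligned reads to mm10 with Cell Ranger (version 7.0.0 in the submitters' processing notes, whereas the study's methods give a range of versions and not which library used which, so that a version change between libraries cannot be told apart from the groups), filtered cells in Seurat (at least 200 genes, within 2 SD of the mean genes and counts, at most 12% mitochondrial reads) and clustered them after SCT normalization and CCA integration. Doublet removal is not given in the sources used here and no doublet caller was run.

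Counts were summed per cluster and library and expressed as CPM, with exact Poisson 95% intervals for levels, exact conditional binomial intervals for ratios and Clopper-Pearson intervals for shares. Fits need replicates, so none was made. Depth was 364 to 66157 UMIs per cell, which limits low genes. Genes counted as past 2-fold with at least 10 UMIs over both groups, and a level of 0 was given the limit of 3 counts. Shares were also taken after thinning each cell to 1000 UMIs. The tools were pandas 2.3.3, scipy 1.17.1 and numpy 2.4.6 under Python 3.11.15, with figures by matplotlib 3.10.9 and edgeR 4.0.16 in R 4.3.3 for TMM factors only. The ratio and its interval were tested on simulated data. All members are named; other pathway genes are the up to 4 of each of 7 lists with the most UMIs in the table discussed, and patterns were compared among genes with at least 500 UMIs. Members and lists were chosen with earlier results of these data known. Gene positions are from GENCODE on GRCm38, perhaps not the annotation behind the counts, and promoter sequences are from RefSeq.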

Additional observations from a re-analysis of the deposited data

Results flagged for a closer look

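Endothelial cells of the lines were set side by side for the ratio of ischemic to physical injury, and 3 members were picked out because their ratios differed in sign or lay apart. The difference between the lines was not tested, since each group has 1 library. Tgfb2 had a log2 ratio of -0.84 (-0.99 to -0.68) in the NG2 line and 0.036 (-0.04 to 0.11) in the Tbx18 line. For Tgfb3 it was 0.45 (-1.53 to 2.67) in the NG2 line, from 4 physical and 7 ischemic UMIs, and -4.52 (-9.89 to -1.87) in the Tbx18 line, from 20 and 1 UMIs, so that few molecules stand behind it. Tgfbr1 had -0.26 (-0.51 to -0.02) in the NG2 line and 0.080 (-0.05 to 0.21) in the Tbx18 line, with intervals that overlap between -0.05 and -0.02.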

How the results depend on the processing

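No paired analysis was possible because each group has 1 library, and no library was left out for the same reason. Over 30 log2 ratios, 189 values under alternatives were computed, of which 169 stayed within the main counting interval, 20 moved outside it and 0 reversed a called value. The smooth muscle, border macrophage, naive cluster 13 and richest cell alternatives were chosen after seeing the data.

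With cells under 2 UMIs of myeloid markers, the Tgfb2 ratio was 0.41 in NG2 cluster 8 (physical to naive), -0.54 (physical to naive) and -0.37 (ischemic to physical) in NG2 cluster 5, and the Tgfbi ratio 0.16 in NG2 cluster 4. Among cells without the leading genes of naive cluster 13, Tgfb2 was -0.68 (physical to naive) and -0.65 (ischemic to physical) in NG2 cluster 5 and -0.25 in Tbx18 cluster 0. As a mean over cells it was -0.74 (ischemic to naive) and -0.56 (ischemic to physical) in NG2 cluster 5 and 0.13 in Tbx18 cluster 0, Tgfb3 was 2.54 in Tbx18 cluster 2 and Tgfbr1 -1.26 in NG2 cluster 9. Tgfbr1 there was also -1.23 with TMM factors, -1.23 without the deepest 5% of cells, -1.19 without border macrophage markers and -1.22 without the richest cell, and Tgfbi 1.70 without border macrophage markers. With the study's filters applied again Tgfbi was 0.73 in Tbx18 cluster 3 and 0.27 in NG2 cluster 4. Among cells with few smooth muscle transcripts Tgfb3 was 1.09 in Tbx18 cluster 2, and 5 rather than 8 targets were past 2-fold upward in NG2 cluster 8 after physical injury. The cause was not tested.

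The share of all genes past 2-fold either way was 22.8% in NG2 cluster 8 (ischemic to naive), 19.5% in NG2 cluster 9 and 17.7% in Tbx18 cluster 2 (physical to naive). It was 41.6%, 42.6% and 35.7% with no minimum of UMIs, 14.4%, 9.57% and 9.74% with at least 50 UMIs, and 43.4%, 40.5% and 35.1% at 1.5-fold. Inhba in NG2 cluster 4 had no value under 3 alternatives, and Inhbb in Tbx18 cluster 0 none under 1, since the physical injury cells then held no UMI.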
